A study of Homo sapiens with 8 samples.

Results

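The 10 genes described here encode zinc-dependent histone deacetylases, and they were followed in HCT116 cells, an established human colorectal carcinoma line, exposed for 10 h to an inhibitor of these same enzymes. They are the 4 class I genes HDAC1, HDAC2, HDAC3 and HDAC8 and the 6 class II genes HDAC4, HDAC5, HDAC6, HDAC7, HDAC9 and HDAC10, of 19775 genes that the array annotation names with exactly 1 symbol. Of the table's 54613 probe sets, 24 carried 1 of these symbols alone, and each gene was read from whichever of its probe sets had the highest average level. The study held 4 groups of 2 Affymetrix U133 2.0 arrays, all from 1 line seeded at 400000 cells per well and treated 1 day later. Cells were given 20 nM largazole, 20 nM FK228, 2 µM SAHA or vehicle control alone. Nothing beyond a duplicate is stated of how the 2 samples of a group arose. The p-values rest on the spread between duplicates, pooled over the 4 groups and combined with a prior from all tested probe sets. This spread may be technical.

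Zinc-dependent deacetylases remove acetyl groups from lysines of histones and of other proteins. Class I enzymes are mostly nuclear, and HDAC1, HDAC2 and HDAC3 act as the catalytic subunits of corepressor complexes. Class IIa enzymes (HDAC4, HDAC5, HDAC7 and HDAC9) shuttle between nucleus and cytoplasm, bind MEF2 transcription factors and have little catalytic activity of their own, while the class IIb enzymes HDAC6 and HDAC10 act largely in the cytoplasm. Largazole, a cyclic depsipeptide thioester, and FK228 (romidepsin), a bicyclic depsipeptide with a disulfide bond, both release a thiol that binds the zinc of the active site and are known for a preference for class I enzymes. SAHA (vorinostat) binds the zinc through a hydroxamic acid and is less selective. The arrays measured transcripts, so the values below are levels of deacetylase RNA, not of protein or of enzyme activity.

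Levels are given in log2 units, in which a difference of 1 is a 2-fold change. Array medians lay between 4.47 and 4.51, and Pearson's r between the 2 arrays of a group, across probe sets, was 0.995 to 0.997. The first principal component held 64.9% of the variance and set the vehicle arrays at 80.3 and 81.1 apart from all treated arrays, which lay between -42.2 and -16.0. Of 12 markers of colorectal epithelium, 10 were at or above the filter value of 4.49 on all 8 arrays, with EPCAM at a log2 level of 12.58 and KRT18 at 12.83 in vehicle, while VIL1 and LGALS4 were not. Of 7 leukocyte markers on the array, 3 reached that value on all arrays, and PTPRC, which defines leukocytes, was at 2.47 in vehicle. Of 9 fibroblast and endothelial markers, 3 did so, with CDH5 at 3.27 in vehicle. COL1A1 was at 7.13 in vehicle, 8.40 with largazole, 7.85 with SAHA and 7.73 with FK228. COL1A2 and COL3A1 were both at 3.33 in vehicle, and at 3.46 and 3.29 with FK228. Epithelial markers moved both ways. With FK228 EPCAM was at 12.12 and CLDN4 at 6.73, from 8.39 for CLDN4 in vehicle. CDH1 was at 10.098, KRT8 at 12.21 and KRT19 at 12.29 with FK228, from 9.41, 11.97 and 12.13 in vehicle. Array means of the epithelial list were 8.29 in vehicle, 8.23 to 8.32 with largazole, 8.23 to 8.24 with SAHA and 8.10 to 8.14 with FK228. Those of the leukocyte list ran from 4.05 to 4.10 in vehicle and from 4.07 to 4.24 in treated cells, and those of the fibroblast and endothelial list from 4.37 to 4.46 and from 4.34 to 4.51. The part of these markers in the results was not tested. In bulk RNA, fewer cells of a type and less RNA per cell cannot be told apart.

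With each of the 3 inhibitors the same 5 deacetylase genes differed from vehicle and in the same direction: HDAC3 and HDAC5 were higher, and HDAC8, HDAC4 and HDAC7 were lower. The changes were small, from a fall of 0.61 (HDAC7 with SAHA) to a rise of 0.72 (HDAC3 with FK228) in log2 difference, or 0.655-fold to 1.65-fold. The other 5 genes, HDAC1, HDAC2, HDAC6, HDAC9 and HDAC10, were not called with any compound (adjusted p under 0.05, limma). The same 2 vehicle arrays served all 3 comparisons, so the shared direction is not independent evidence from each compound. Of all tested genes, 45.2% were called with largazole, 47.4% with SAHA and 52.8% with FK228, so 5 of 10 is near the background and not a result about this family. All 10 representative probe sets lay at or above 4.49 on each of the 8 arrays, so none entered the test through the group in which it was high.

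**Figure D1:**
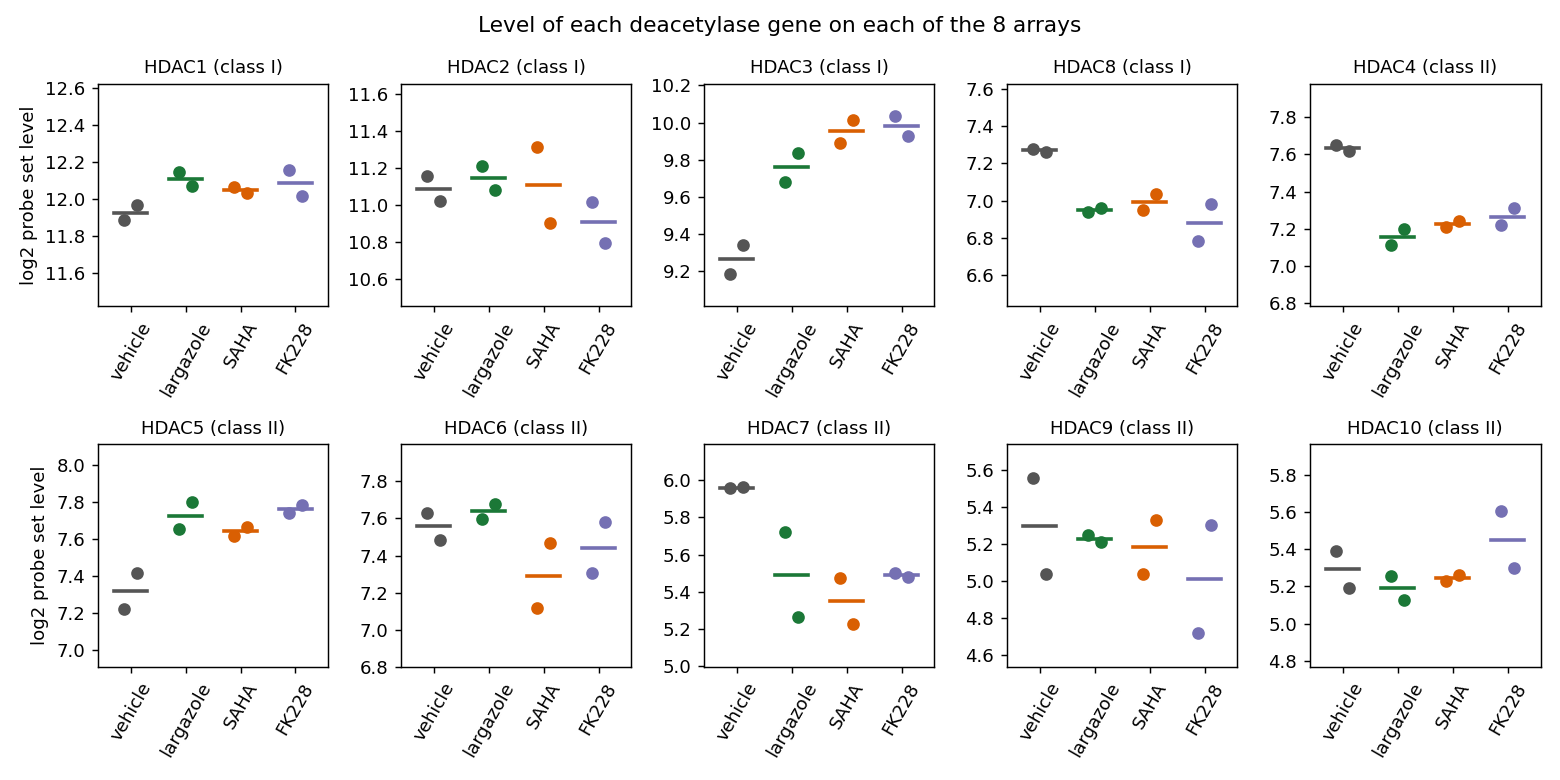
Log2 probe set level (vertical axis, each panel with the same span) of the 10 deacetylase genes in vehicle, largazole, SAHA and FK228 cells. Points are single arrays and bars are means of 2 arrays. For HDAC3 and HDAC5 all 6 treated arrays lie above both vehicle arrays, and for HDAC8, HDAC4 and HDAC7 all 6 lie below.

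Among the class I genes HDAC3 showed the largest changes. HDAC3 encodes the catalytic subunit of nuclear receptor corepressor complexes. Its log2 level was 9.18 and 9.34 on the vehicle arrays, 9.68 and 9.84 with largazole, 9.89 and 10.01 with SAHA, and 10.04 and 9.93 with FK228. The treated arrays did not overlap the vehicle arrays, and largazole lay below both other compounds. HDAC3 rose by 0.50 ± 0.10 (SE, n = 2) with largazole (1.41-fold, adjusted p = 0.0061), by 0.69 ± 0.10 with SAHA (1.61-fold, adjusted p = 0.00113) and by 0.72 ± 0.10 with FK228 (1.65-fold, adjusted p = 0.000722). The 95% confidence intervals of these log2 differences were 0.26 to 0.74, 0.45 to 0.93 and 0.48 to 0.96. HDAC3 has 1 probe set, so the mean of all probe sets only repeats its reading. All 16 alternatives that could be computed for each compound kept its call and direction. With largazole its difference ranged from 0.42 to 0.58 across them.

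HDAC8, a class I enzyme that works outside the large corepressor complexes and deacetylates the cohesin subunit SMC3, moved the other way. Its log2 level was 7.28 and 7.26 on the vehicle arrays, 6.94 and 6.96 with largazole, 6.95 and 7.04 with SAHA, and 6.78 and 6.98 with FK228. Every treated array was below both vehicle arrays. HDAC8 changed by -0.32 ± 0.093 (SE, n = 2) with largazole (adjusted p = 0.0267), by -0.28 ± 0.093 with SAHA (adjusted p = 0.0432) and by -0.39 ± 0.093 with FK228 (adjusted p = 0.00941), or to 0.801, 0.825 and 0.763 of the vehicle level. These calls did not all hold with 1 array left out or with another choice of probe set. The largazole call ended without either largazole array or either vehicle array, while the difference stayed at -0.31 to -0.33. The SAHA call ended without either largazole array, either SAHA array or either vehicle array (adjusted p = 0.071 to 0.165), when _x_at and _s_at probe sets were dropped (0.0509), and with equal ribosomal protein medians (0.0776). The FK228 call ended without FK228 replicate 1 (0.0591). With the mean of its 3 probe sets HDAC8 was not called with largazole (-0.37, adjusted p = 0.0545), SAHA (-0.33, 0.079) or FK228 (-0.26, 0.149).

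HDAC1 and HDAC2, paralogous subunits of the SIN3, NuRD and CoREST complexes, had no call. HDAC1 stood at 11.89 and 11.97 on the vehicle arrays, 12.15 and 12.07 with largazole, 12.07 and 12.03 with SAHA, and 12.16 and 12.02 with FK228, so that all 6 treated arrays lay above vehicle. Its differences were 0.18 ± 0.088 (SE, n = 2; adjusted p = 0.142), 0.12 ± 0.088 (0.306) and 0.16 ± 0.088 (0.176), and the highest upper bound of their 95% intervals was 0.38. A prior fitted with an intensity trend called HDAC1 with largazole (adjusted p = 0.0243) and FK228 (0.0389). HDAC2 stood at 11.16 and 11.02 with vehicle, 11.21 and 11.08 with largazole, 11.31 and 10.91 with SAHA, and 11.02 and 10.80 with FK228. The largazole and SAHA arrays overlapped vehicle, and the FK228 arrays lay just below it. The HDAC2 differences were 0.06 ± 0.15 (adjusted p = 0.798), 0.02 ± 0.15 (0.929) and -0.18 ± 0.15 (0.351), with 95% intervals of -0.29 to 0.40, -0.32 to 0.36 and -0.52 to 0.16.

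The 4 class IIa genes held 1 rise, 2 falls and 1 gene without a call. HDAC4, a MEF2-binding repressor, stood at 7.65 and 7.62 on the vehicle arrays, 7.11 and 7.20 with largazole, 7.21 and 7.24 with SAHA, and 7.22 and 7.31 with FK228. The 2 arrays of each group lay close together, and all treated arrays were below vehicle. HDAC4 changed by -0.48 ± 0.082 (SE, n = 2; adjusted p = 0.00242), -0.41 ± 0.082 (0.00458) and -0.37 ± 0.082 (0.00644), or to 0.717, 0.752 and 0.773 of vehicle. All 17 alternatives for each compound kept these calls.

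HDAC5, the closest relative of HDAC4 in domain layout, rose where HDAC4 fell. Its log2 level was 7.22 and 7.41 with vehicle, 7.65 and 7.80 with largazole, 7.62 and 7.66 with SAHA, and 7.74 and 7.78 with FK228. No treated array overlapped a vehicle array. HDAC5 rose by 0.41 ± 0.098 (SE, n = 2) with largazole (1.32-fold, adjusted p = 0.0124), by 0.32 ± 0.098 with SAHA (1.25-fold, 0.03) and by 0.44 ± 0.098 with FK228 (1.36-fold, 0.0067). Leaving out largazole replicate 2 (adjusted p = 0.0884) or vehicle replicate 1 (0.0795) ended the largazole call. The SAHA call ended without either SAHA array or without vehicle replicate 1 (0.0734 to 0.169), and with the mean of both probe sets (0.21, adjusted p = 0.0567) it was not made, while the FK228 call held in all 17 alternatives.

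HDAC7, a class IIa repressor known from thymocytes and endothelium, had its lowest mean with SAHA. Its log2 level was 5.96 and 5.96 on the vehicle arrays, 5.72 and 5.26 with largazole, 5.47 and 5.23 with SAHA, and 5.50 and 5.48 with FK228. The vehicle arrays were all but equal and above every treated array, whereas the largazole arrays differed from each other by almost as much as their mean differed from vehicle. HDAC7 changed by -0.47 ± 0.15 (SE, n = 2; adjusted p = 0.0408), -0.61 ± 0.15 (0.0131) and -0.47 ± 0.15 (0.0336), or to 0.723, 0.655 and 0.721 of vehicle. With largazole the difference was -0.24 (adjusted p = 0.227) without largazole replicate 2 and -0.70 without largazole replicate 1. The largazole call also ended without either FK228 array or either vehicle array, the SAHA call without SAHA replicate 2 or either vehicle array, and the FK228 call without either FK228 array or either vehicle array (adjusted p = 0.0539 to 0.129 in these fits).

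HDAC9, whose short form MITR lacks the deacetylase domain, was low and variable. Its log2 level was 5.55 and 5.04 with vehicle, 5.25 and 5.21 with largazole, 5.04 and 5.33 with SAHA, and 4.72 and 5.30 with FK228, and each treated group overlapped vehicle. The differences were -0.07 ± 0.22 (SE, n = 2; adjusted p = 0.848), -0.11 ± 0.22 (0.734) and -0.28 ± 0.22 (0.335). The 95% intervals were -0.59 to 0.45, -0.63 to 0.41 and -0.81 to 0.24. Each leaves room for a fall larger than any called in the family with the same compound.

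Neither class IIb gene was called. HDAC6, the tubulin deacetylase, stood at 7.63 and 7.48 with vehicle, 7.60 and 7.68 with largazole, 7.12 and 7.47 with SAHA, and 7.31 and 7.58 with FK228. Of the treated groups only SAHA did not overlap vehicle, and its higher array lay just under the lower vehicle array. HDAC6 differed by 0.08 ± 0.14 (SE, n = 2; adjusted p = 0.693), -0.27 ± 0.14 (0.175) and -0.11 ± 0.14 (0.547). HDAC10, a polyamine deacetylase, stood at 5.39 and 5.19 with vehicle, 5.26 and 5.13 with largazole, 5.23 and 5.26 with SAHA, and 5.61 and 5.30 with FK228, and every treated group overlapped vehicle. Its differences were -0.10 ± 0.12 (adjusted p = 0.569), -0.05 ± 0.12 (0.797) and 0.16 ± 0.12 (0.33).

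**Figure D2:**
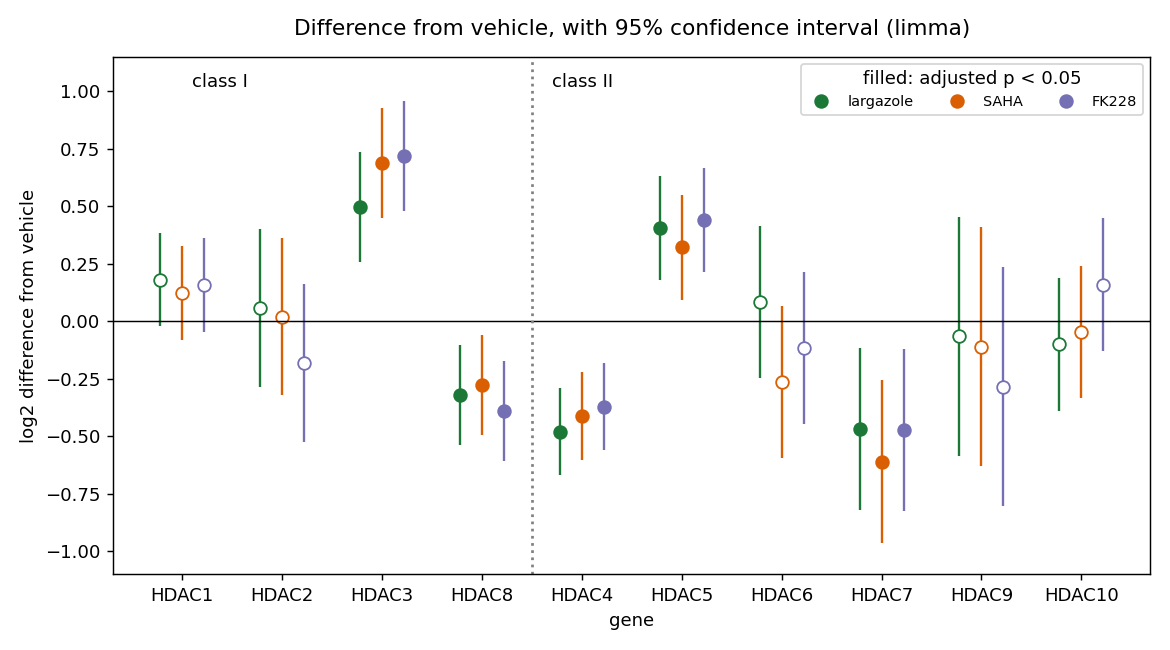
Log2 difference from vehicle (vertical axis) for each deacetylase gene with largazole, SAHA and FK228, with 95% confidence intervals from limma over 8 arrays. Filled points passed an adjusted p of 0.05. HDAC3 and HDAC5 lie above 0, and HDAC8, HDAC4 and HDAC7 below, with all 3 compounds.

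Other settings also ended calls of HDAC8, HDAC5 and HDAC7. With no filter on low probe sets, HDAC8 (adjusted p = 0.0715) and HDAC7 (0.0687) were not called with largazole, HDAC8 (0.108) and HDAC5 (0.0738) with SAHA, and HDAC7 (0.0545) with FK228. With only the 4 arrays compared in the fit, HDAC7 (0.0556) was not called with largazole, nor HDAC8 (0.0661) and HDAC5 (0.0586) with SAHA.

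By class, 1 of 4 class I genes rose and 1 fell with each compound, and 1 of 6 class II genes rose and 2 fell. The share of all genes called higher was 21.9% with largazole, 22.1% with SAHA and 25.7% with FK228, and the share called lower was 23.2%, 25.2% and 27%. The median log2 difference of the class I genes was 0.12 with largazole, 0.07 with SAHA and -0.01 with FK228, and that of the class II genes was -0.08, -0.19 and -0.20. Over all tested genes the median was 0.00, -0.02 and 0.01. The median size of the difference, without its sign, was 0.25, 0.27 and 0.33 over the 10 deacetylase genes against 0.27, 0.29 and 0.33 over all tested genes. Arrays of treated and vehicle cells did not overlap for 6 of 10 deacetylase genes with largazole, 7 with SAHA and 7 with FK228, against 74.4%, 73% and 76.2% of all tested genes. Each class held members that moved in opposite directions, and the median size of change was close to that of all tested genes.

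**Figure D3:**
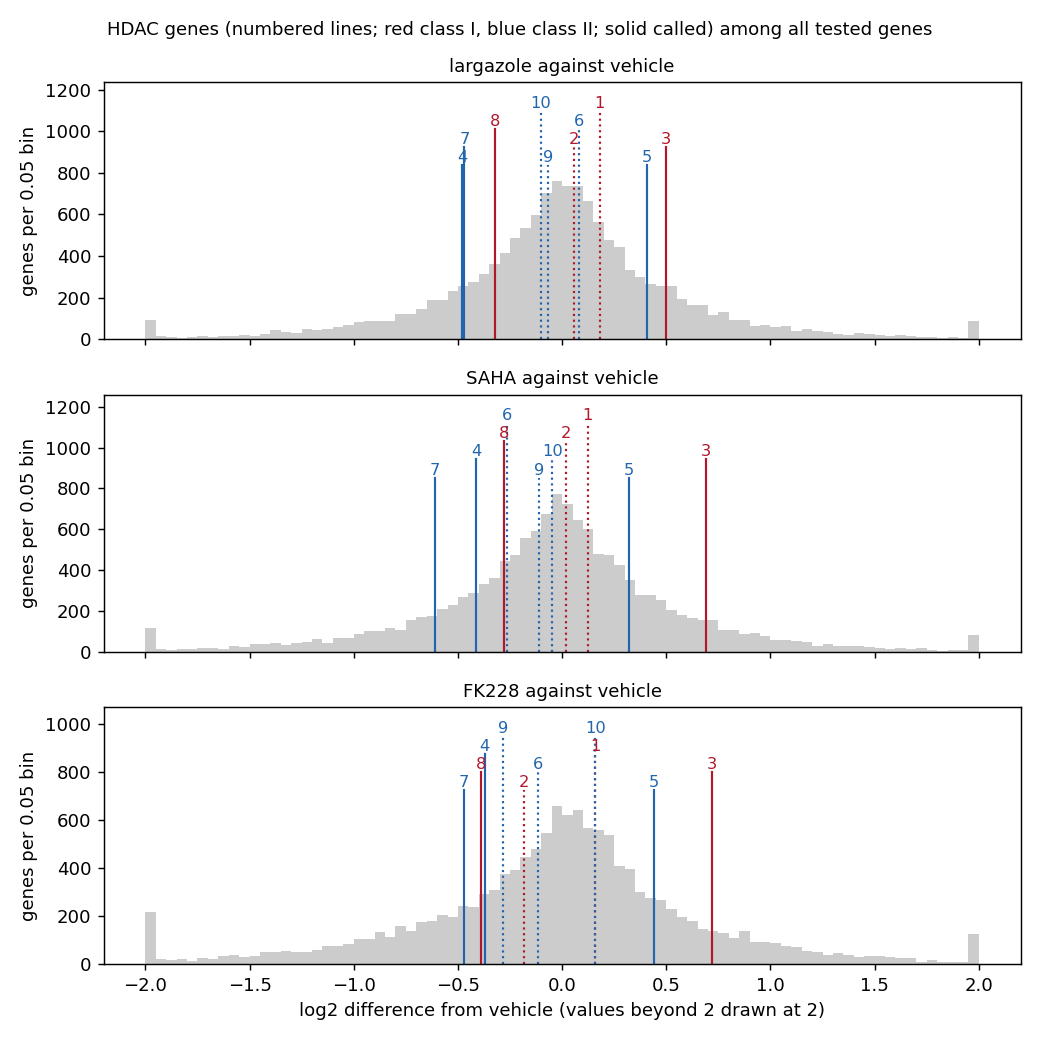
Histogram of the log2 difference from vehicle over all 13373 tested genes (genes per bin of 0.05 log2 units), 1 panel per compound, with the 10 deacetylase genes as numbered vertical lines and values beyond 2 drawn at 2. Red lines are class I, blue lines class II, and solid lines were called. All 10 lie between -0.61 and 0.72.

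Largazole and FK228 are the 1 pair of compounds given at the same concentration and time, and they differ in ring system and in the form in which the thiol is masked. Of the 10 genes, 0 were called between them by limma, while 9.06% of all tested genes were called. At an unadjusted p under 0.05 there were 0 of the 10 genes, against 3613 of all 13373 tested genes. The differences of FK228 minus largazole ran from -0.24 (HDAC2) to 0.26 (HDAC10), with adjusted p of 0.223 to 0.993. HDAC3 was 0.22 ± 0.10 higher with FK228 (SE, n = 2; 95% interval -0.02 to 0.46, adjusted p = 0.223), and its arrays with the 2 compounds did not overlap. HDAC10 was 0.26 ± 0.12 higher with FK228 (-0.03 to 0.55, adjusted p = 0.237), also without overlap. The intervals were narrowest for HDAC4 (-0.08 to 0.30) and HDAC1 (-0.23 to 0.18), and widest for HDAC9 (-0.74 to 0.30). For the other called genes they were -0.29 to 0.15 for HDAC8, -0.19 to 0.26 for HDAC5 and -0.36 to 0.35 for HDAC7. Arrays with the 2 compounds did not overlap for 5 of 10 deacetylase genes, against 58.5% of all tested genes. SAHA was given at another concentration, so its values stand beside the others without a test. Its mean lay between those of the 2 depsipeptides for HDAC2, HDAC3, HDAC4, HDAC9 and HDAC10.

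Most of the deacetylase genes had further probe sets, which gave further readings of the same genes. Whether they read the same transcripts was not tested. Of the 24 probe sets, 17 were tested, and 7 lay under the filter (the second-highest of 8 values had to reach 4.49). Among the 7 further probe sets tested, 1 was called with largazole, 0 with SAHA and 1 with FK228 (adjusted p under 0.05, limma), where 40.7%, 43.7% and 49% of all tested probe sets were. At an unadjusted p under 0.05 the SAHA comparison held 2, those of HDAC4 and HDAC8. Their sign was that of the gene's representative in 4, 7 and 5 of 7. The second HDAC4 probe set, 228813_at, gave -0.44 ± 0.11 (SE, n = 2; adjusted p = 0.0164), -0.32 ± 0.11 (0.0518) and -0.34 ± 0.11 (0.0387), close to the -0.48, -0.41 and -0.37 of the first. A further HDAC4 probe set, 1554322_a_at, lay under the filter and gave -0.25, -0.17 and -0.07 with no test, overlapping vehicle each time. The second HDAC5 probe set, 229408_at, gave 0.17, 0.10 and 0.17, all with adjusted p of at least 0.245. That of HDAC2, 242141_at, gave -0.03, 0.09 and -0.006, all uncalled and overlapping vehicle.

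The probe sets of HDAC8 differed among themselves. Probe set 223909_s_at gave -0.39, -0.10 and 0.03 with largazole, SAHA and FK228, and 223908_at gave -0.41, -0.62 and -0.41, none of them called. Between FK228 and largazole 223909_s_at was 0.41 ± 0.17 higher with FK228 (SE, n = 2; unadjusted p = 0.0445, adjusted p = 0.182, arrays not overlapping), beside -0.07 for the representative. The FK228 arrays differed for 223908_at, at 4.39 and 5.29. The further HDAC7 probe set, 236326_at, was at or below 3.03 on every array, under the filter, and gave -0.41, -0.35 and -0.42 with no test. The 4 further probe sets of HDAC9 lay between 2.31 and 3.63, near background. The second HDAC6 probe set tested, 216224_s_at, gave -0.12, -0.26 and 0.13, and that of HDAC10, 232870_at, gave 0.10, -0.08 and 0.25, all uncalled. Probe set 211722_s_at of HDAC6 lay under the filter and gave -0.11, 0.05 and 0.21 with no test.

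**Figure D4:**
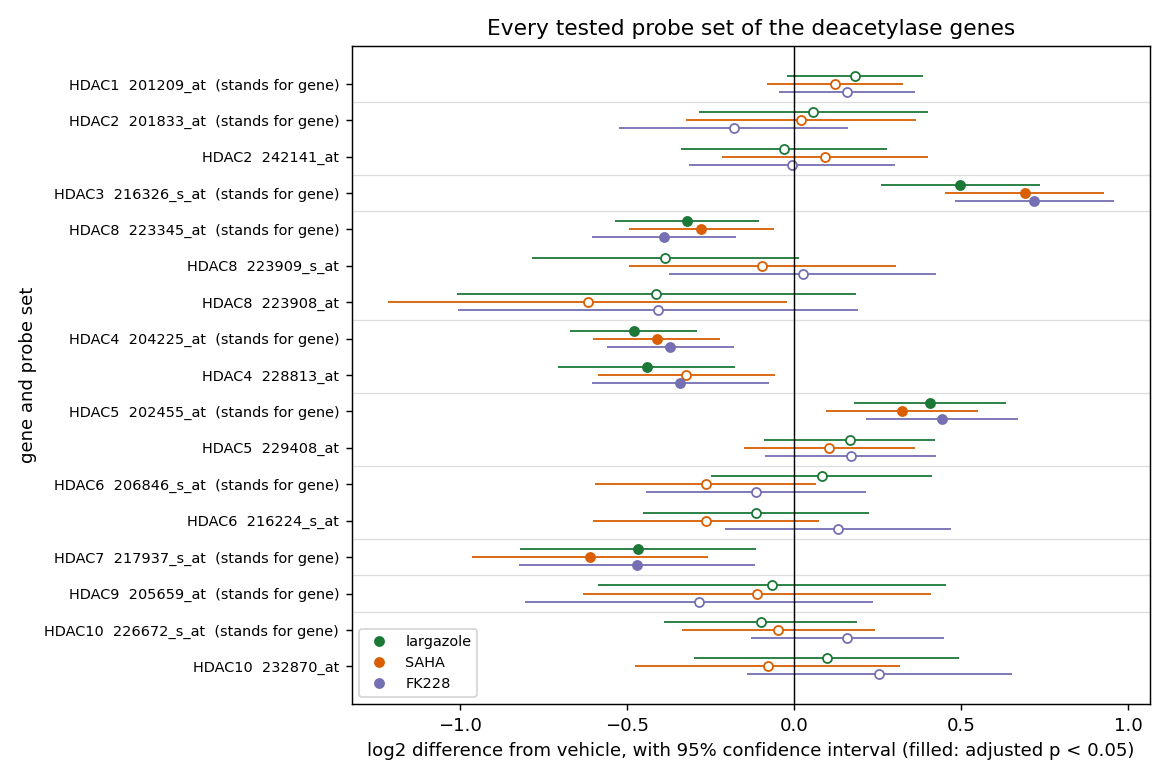
Log2 difference from vehicle (horizontal axis) with 95% confidence interval for each of the 17 tested probe sets of the deacetylase genes, grouped by gene, with largazole, SAHA and FK228 in separate colours. Filled points passed an adjusted p of 0.05. The probe sets of HDAC4 lie close together, whereas those of HDAC8 spread from -0.62 to 0.03.

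Promoter sequences are shown for the called genes with a single listed start, HDAC3 (higher), HDAC8 and HDAC7 (lower), and for HDAC1 as an uncalled class I gene. GC boxes, which bind the SP1 family of factors, are known as elements through which deacetylase inhibitors act on some promoters. Each line gives the 250 bases before the RefSeq start on GRCh38.p14, on the gene's strand, 5′ to 3′, with GC boxes (GGGCGG, or CCGCCC on the other strand) in capitals. The HDAC3 window is chr5:141636850-141637099 (minus strand), the HDAC8 window chrX:72572844-72573093 (minus), the HDAC7 window chr12:47819904-47820153 (minus) and the HDAC1 window chr1:32291833-32292082 (plus).
HDAC3: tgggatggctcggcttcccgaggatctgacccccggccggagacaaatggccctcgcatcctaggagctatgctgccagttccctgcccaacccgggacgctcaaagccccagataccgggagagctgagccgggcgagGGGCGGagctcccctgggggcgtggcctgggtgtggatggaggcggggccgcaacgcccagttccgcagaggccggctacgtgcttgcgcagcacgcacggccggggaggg
HDAC8: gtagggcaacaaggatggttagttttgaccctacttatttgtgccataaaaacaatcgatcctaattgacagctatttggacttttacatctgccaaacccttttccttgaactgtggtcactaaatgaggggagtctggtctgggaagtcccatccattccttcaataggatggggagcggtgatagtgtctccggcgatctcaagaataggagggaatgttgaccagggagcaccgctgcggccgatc
HDAC7: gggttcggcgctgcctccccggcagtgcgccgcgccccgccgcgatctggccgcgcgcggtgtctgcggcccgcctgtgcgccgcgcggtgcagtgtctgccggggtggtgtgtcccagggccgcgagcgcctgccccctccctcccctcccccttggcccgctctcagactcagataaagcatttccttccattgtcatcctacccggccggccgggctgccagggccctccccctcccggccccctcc
HDAC1: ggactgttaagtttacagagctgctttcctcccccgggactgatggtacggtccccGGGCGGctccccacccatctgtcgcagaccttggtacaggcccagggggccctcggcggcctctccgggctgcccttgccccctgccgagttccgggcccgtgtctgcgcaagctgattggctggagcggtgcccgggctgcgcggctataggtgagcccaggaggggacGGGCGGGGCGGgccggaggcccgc

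The HDAC3 window held 1 GC box and the HDAC1 window 3, of which 2 overlap, while these letters were not found in the HDAC8 and HDAC7 windows. Of 35116 promoter windows of this length, 42.6% held at least 1 GC box. The windows differed in base composition: 48% of the HDAC8 bases were G or C, with 7 CG dinucleotides, against 70.8% and 22 for HDAC3, 75.6% and 28 for HDAC7, and 71.6% and 21 for HDAC1. The median over all windows was 58% and 11 CG dinucleotides. Among these 4 windows the 2 of genes that fell, HDAC7 and HDAC8, had the highest and the lowest share of G and C. A motif match describes the letters and is not a measured binding site. In all, 9 of the 10 genes matched the promoter table, with 19 windows, of which 8 held a GC box. HDAC5 was not among them.

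Genes with profiles most like those of HDAC3, HDAC7 and HDAC4, the called genes with the largest mean changes, were ranked by the root mean square difference of log2 values over the 8 arrays, each gene taken relative to its own mean. ZNF70 (0.06), DPCD (0.06) and NMT2 (0.06) were nearest to HDAC3. BANK1 (0.08), C22orf39 (0.09) and SLC36A4 (0.09) were nearest to HDAC7, but BANK1 was at 4.70 in vehicle and at 4.01 to 4.13 in the treated groups, under the filter value. ITGB5 (0.02), ASAH2B (0.03) and MEST (0.03) were nearest to HDAC4. The median distance over all tested genes was 0.33, 0.32 and 0.26. ITGB5, an integrin subunit, differed from vehicle by -0.49, -0.42 and -0.37 with largazole, SAHA and FK228, beside -0.48, -0.41 and -0.37 for HDAC4.

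Deacetylases outside class I and class II were also measured. Of HDAC11, the class IV enzyme, and the 7 NAD-dependent sirtuins, 4 rose and 1 fell with each compound. The 4 include SIRT4, whose rise is not a test result, as given below. Of all tested genes 45.2%, 47.4% and 52.8% were called in either direction with largazole, SAHA and FK228, and 21.9%, 22.1% and 25.7% were called higher. The median log2 difference of the 8, SIRT4 included, was 0.24 with largazole, 0.32 with SAHA and 0.47 with FK228. Over all tested genes it was 0.00, -0.02 and 0.01. HDAC11 rose by 0.41 ± 0.12 (SE, n = 2; adjusted p = 0.0229), 0.36 ± 0.12 (0.0372) and 0.70 ± 0.12 (0.00152). SIRT4, a mitochondrial sirtuin, had a mean level of 4.44 with vehicle, under the filter value of 4.49, and of 6.39 with largazole, 6.42 with SAHA and 7.06 with FK228. Its probe set entered the test only through the treated groups, which favours a rise over vehicle. Its calls against vehicle are therefore not used as support, and no size of that rise is given. The nucleolar sirtuin SIRT7 (0.71, 0.73 and 1.04) and the cytoplasmic SIRT2 (0.64, 0.61 and 0.83) rose, and the desuccinylase SIRT5 fell (-0.85, -0.78 and -0.78). SIRT4 was the 1 gene of these 8 called between FK228 and largazole (0.67 ± 0.14, adjusted p = 0.0315).

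Subunits of the complexes that hold class I enzymes included genes called higher and genes called lower. Of 25 tested, 7 rose and 7 fell with largazole, 8 and 7 with SAHA, and 7 and 9 with FK228, with medians of 0.01, 0.02 and 0.05. Beside the 45.2%, 47.4% and 52.8% of all tested genes called, these counts are not a result about the subunits. Of the subunits that sit with HDAC3, GPS2 rose (0.66, 0.70 and 0.84) while TBL1XR1 fell (-1.25, -1.38 and -1.59). ING1 (0.88, 1.00 and 1.41) and SAP130 (0.75, 0.76 and 1.03), both of the SIN3 complex, rose, and the NuRD subunits MTA3 (-1.59, -1.76 and -1.91) and MBD3 (-0.88, -1.13 and -1.03) fell. Between FK228 and largazole 3 of the 25 were called higher and 1 lower, where 9.06% of all tested genes were called.

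Partners and kinases of the class IIa enzymes were counted in the same way. Of 19 tested, 3 rose and 4 fell with largazole, 1 and 4 with SAHA, and 5 and 6 with FK228, with medians of 0.04, 0.02 and -0.13, where 45.2%, 47.4% and 52.8% of all tested genes were called. CAMK2D, a kinase that phosphorylates HDAC4 to hold it in the cytoplasm, fell (-1.29, -1.29 and -1.32), and the salt-inducible kinase SIK2 rose (0.59, 0.68 and 0.67). With FK228 SIK1 rose (0.60, adjusted p = 0.001) and SIK3 fell (-0.24, adjusted p = 0.0425). Neither SIK1 nor SIK3 was called with largazole or SAHA. The MEF2 transcription factors, which class IIa enzymes bind, did not move together. MEF2C fell with FK228 (-0.54 ± 0.13 (SE, n = 2), adjusted p = 0.00956) and had no call with largazole (0.13, adjusted p = 0.468) or SAHA (-0.01, adjusted p = 0.977). With FK228 MEF2A rose (0.31 ± 0.081, adjusted p = 0.0132) and MEF2D had no call (0.13, adjusted p = 0.227). Neither MEF2A nor MEF2D was called with largazole or SAHA. Between FK228 and largazole 1 of the 19 was called higher and 1 lower, where 9.06% of all tested genes were called. MEF2C differed by -0.68 ± 0.13 (adjusted p = 0.0239) and SIK1 by 0.50 ± 0.092 (adjusted p = 0.0201).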

How the data were processed

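RNA from 8 HCT116 cultures (4 groups of 2, from the labels' treatment field) was measured on 1-colour Affymetrix arrays. The authors deposited log2 probe set levels. Per the submitters' processing notes the tools included RMA, affy and limma, without versions or their order of use. Further steps are not given in the sources used here. Probe sets were named through the platform annotation: 41091 carried 1 gene symbol, 1801 several and 11721 none.

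A probe set was tested if at least 2 arrays reached 4.49, the median of the whole table, which left 28985, standing for 13373 genes. A gene stands for its single-symbol probe set with the highest mean. One limma model (version 3.58.1, R 4.3.3) covered all 8 arrays (4 residual and 3.69 prior degrees of freedom), with Benjamini-Hochberg adjustment over all tested probe sets and calls at adjusted p under 0.05. The fit was checked on simulated data. The number of arrays limits precision: the 95% interval of a difference had a median half-width of 0.26. With 2 arrays a group, the smallest two-sided p that exact permutation allows is 0.333, so that test was not used. Tables and figures used Python 3.11.15, pandas 2.3.3 and matplotlib 3.10.9.

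All 10 class I and class II genes are named, with some genes of 3 related lists and, for the 3 called members with the largest mean change, the 3 nearest profiles. The genes named from the lists are not in every case the highest and lowest. Members and lists were chosen with earlier results of these data known. Alternatives covered the filter, prior, replicate block, scaling, choice of probe set, arrays fitted and each array left out. Promoter sequences are RefSeq's (GRCh38.p14).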

Additional observations from a re-analysis of the deposited data

How the results depend on the processing

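The counts of called deacetylase genes moved under these alternatives. With largazole 3 were called with no filter and 3 (of 7 left) without probe sets named _x_at or _s_at. With SAHA 3 were called with no filter, 3 with the mean of all probe sets, 3 with only the 4 arrays compared and 2 (of 7 left) without _x_at or _s_at probe sets. With FK228 3 (of 7 left) were called without them. Leaving out 1 array gave 2 to 5 calls with largazole, 2 to 5 with SAHA and 3 to 5 with FK228. The lowest counts came without largazole replicate 2 or vehicle replicate 1, without SAHA replicate 2 or vehicle replicate 1, and without FK228 replicate 1. FK228 against largazole gave 0 in each alternative. The replicate block gave 5, 5, 5 and 0 calls and changed no member's call. Over all probe sets the block moved calls from 11790 to 13170 with largazole, 12666 to 13997 with SAHA, 14195 to 15456 with FK228 and 2385 to 3587 for FK228 against largazole. Deviations of arrays with the same replicate number correlated in all 6 pairs of groups (r = 0.128 to 0.268 across 28985 probe sets). The labels do not say what the numbers share, and there are only 2, so this is a hint from the data.

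Signs that reversed belonged to uncalled differences, and their cause was not tested. With the mean of all probe sets HDAC6 was at -0.017 with largazole and 0.0083 with FK228, and FK228 minus largazole was 0.12 for HDAC8 and 0.025 for HDAC6. Without _x_at or _s_at probe sets HDAC10 was at 0.097 with largazole. With equal ribosomal protein medians FK228 minus largazole was 0.016 for HDAC1 and 0.036 for HDAC7, and with further quantile normalization 0.012 for HDAC7. With 1 array left out, HDAC2 ranged from -0.0096 to 0.12 with largazole and from -0.18 to 0.22 with SAHA. HDAC9 ranged from -0.32 to 0.19 with largazole, -0.37 to 0.15 with SAHA and -0.57 to 0.0054 with FK228. HDAC10 ranged from -0.15 to 0.051 with SAHA, and HDAC6 from -0.25 to 0.024 with FK228. FK228 minus largazole ranged from -0.093 to 0.048 for HDAC1, -0.17 to 0.030 for HDAC8, -0.037 to 0.11 for HDAC5, -0.23 to 0.22 for HDAC7 and -0.51 to 0.071 for HDAC9.

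HDAC3, HDAC6 and HDAC7 have no value without _x_at or _s_at probe sets, and a stricter filter (6.87) left 7 genes.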

Other observations

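Antisense transcripts of 2 deacetylase genes were also on the array. HDAC4-AS1 stood at a log2 level of 4.82 and 5.04 with vehicle, 5.17 and 5.30 with largazole, 4.97 and 4.97 with SAHA, and 4.97 and 5.11 with FK228. Both largazole arrays lay above vehicle, with a difference of 0.30 ± 0.11 (SE, n = 2; adjusted p = 0.052, limma), while SAHA (0.037, adjusted p = 0.813) and FK228 (0.10, 0.468) overlapped vehicle. HDAC2-AS2 lay between 3.02 and 3.53 on all arrays, under the filter, and was not tested.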
